A study of Mus musculus with 4 samples.

Results

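Satb1 encodes special AT-rich sequence binding protein 1, a nuclear protein that binds AT-rich DNA and organises chromatin into loops. The regions described here are entries of 6 lists of differentially accessible chromatin whose midpoint lay inside Satb1, or outside all protein-coding genes and nearest to its start or end within 100 kb. The rule used position alone. It gave 54 of the 92372 listed entries, which merged into 31 of 52537 distinct regions where entries overlapping by at least 1 bp were joined.

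Satb1 is needed for T cell development in the thymus, where it helps to set up lineage-specific enhancers. In mouse Th2 cells it is known to fold the cytokine locus of Il4, Il5 and Il13. In regulatory T cells its level is held low, in part by Foxp3.

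Accessibility was measured by ATAC-seq, in which a transposase inserts sequencing adapters into open DNA, in T helper cells of mice given house dust mite extract through the nose as an asthma model. Day 15 is the time in the sample titles, whereas the descriptions of naive and other effector cells carry a different day label. All were CD3+ CD4+. Th2 cells (CD44+ ST2+ CD30L+), Treg cells (CD25hi CD30L-) and other effector cells (CD44+ ST2- CD30L+), taken to be the cells the protocol calls non-Th2 memory, came from lung with airways. Naive cells (CD44lo) came from the mediastinal lymph node per the protocol, although their source label names lung, so each comparison with naive cells is also one between tissues, and cell state and tissue cannot be told apart. No strain, age or genotype is stated in the sources used here, and the labels place all 4 populations in the house dust mite model. Each population had 3 biological replicates of 1000 sorted cells per the labels' protocols. Each list gives a position and a log2 fold, the authors' own value throughout, with no replicate values, counts or p-values. Depth is therefore unknown, no fold has an error, and no test between populations could be made. In bulk cells, fewer cells with an open region and less opening per cell cannot be told apart.

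The lists held 5300 to 28175 entries, and the smallest fold in any of them was 3.41 in size by the authors' deposited table. A region missing from a list may therefore still differ by less than that. It may also differ by more, because the rule for listing is not stated. The 3 lists with other effector cells held only regions lower in those cells, so the direction at Satb1 in them is that of the whole list. No source used here states whether entries were filtered by direction. The order of each pair was taken from the names of the lists. For naive against Th2 and naive against Treg cells, the sign was checked with marker genes other than Satb1. In the 3 lists with other effector cells all entries share 1 sign, so markers could not check it. The naive markers Ccr7, Lef1 and Tcf7 had 32 regions lower and 0 higher in Th2 cells than in naive ones, and 24 lower and 0 higher in Treg than in naive cells. Th2 markers had 19 regions higher and 0 lower in Th2 than in naive cells, of which 11 belonged to Il1rl1, which encodes the sort marker ST2. These covered 4 of the 5 Th2 genes, with none at Gata3, which had 1 region higher in Treg than in Th2 cells. Il1rl1 also had 9 regions higher in Treg than in naive cells. Treg markers had 18 regions higher and 0 lower in Treg than in naive cells, with 1 at Foxp3. Markers of B cells and of CD8 and NK cells also moved with the naive direction, whereas myeloid markers did not do so against Th2 cells. The 5 B cell genes had 5 regions lower in Th2, 2 lower in Treg and 18 lower in other effector cells than in naive cells, and 0 higher in Th2 or Treg than in naive cells. The 5 CD8 and NK genes had 10, 7 and 18 such lower regions and 0 higher ones. The 5 myeloid genes had 3 regions higher in Th2 cells than in naive ones, 7 lower in Treg than in Th2 cells and 3 lower in other effector than in naive cells, with none at Lyz2. The part of other cell types in the Satb1 values was not tested.

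Satb1 lies on chromosome 17 at 51736187 to 51833290 of build GRCm38.p6, on the minus strand, so its start is the higher coordinate. RefSeq gives 5 promoter windows for its transcripts, each reaching from 250 bases before to 50 bases after a transcript start. The following 4 are printed because listed regions covered or adjoined them. They are written 5′ to 3′ on the strand of the gene, with matches to the searched motifs in capitals.

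Satb1 window 1 (chr17:51833241-51833540, minus strand): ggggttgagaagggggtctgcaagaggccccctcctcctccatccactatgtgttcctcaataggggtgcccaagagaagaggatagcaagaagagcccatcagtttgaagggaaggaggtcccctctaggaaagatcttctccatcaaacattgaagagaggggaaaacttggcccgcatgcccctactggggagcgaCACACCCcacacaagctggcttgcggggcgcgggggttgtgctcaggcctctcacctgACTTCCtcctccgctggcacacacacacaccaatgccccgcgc

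Satb1 window 2 (chr17:51832598-51832897, minus strand): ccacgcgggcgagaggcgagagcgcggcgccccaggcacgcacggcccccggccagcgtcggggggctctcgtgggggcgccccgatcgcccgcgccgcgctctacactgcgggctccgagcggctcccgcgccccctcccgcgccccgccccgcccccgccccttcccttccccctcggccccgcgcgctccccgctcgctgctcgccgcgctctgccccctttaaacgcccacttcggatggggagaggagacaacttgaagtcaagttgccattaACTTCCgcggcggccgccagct

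Satb1 window 3 (chr17:51826539-51826838, minus strand): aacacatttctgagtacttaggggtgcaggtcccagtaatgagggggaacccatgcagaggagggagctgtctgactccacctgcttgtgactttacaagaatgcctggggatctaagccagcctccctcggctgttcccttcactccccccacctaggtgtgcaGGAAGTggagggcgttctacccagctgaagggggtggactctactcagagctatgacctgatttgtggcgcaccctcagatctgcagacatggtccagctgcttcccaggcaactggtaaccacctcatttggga

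Satb1 window 4 (chr17:51812135-51812434, minus strand): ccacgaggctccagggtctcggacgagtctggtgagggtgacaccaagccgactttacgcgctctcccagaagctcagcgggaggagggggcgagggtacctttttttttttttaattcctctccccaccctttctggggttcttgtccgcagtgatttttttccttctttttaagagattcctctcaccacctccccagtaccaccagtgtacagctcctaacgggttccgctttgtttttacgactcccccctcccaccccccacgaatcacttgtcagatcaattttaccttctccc

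Window 1 is at the gene start, window 2 lies 643 bp into the gene, window 3 lies 6702 bp in and window 4 lies 21106 bp in. Window 5, 21236 bp in, shares most of its bases with window 4. Window 2 was 76.7% G and C with 45 CG dinucleotides, against medians of 52.7% and 7 over the 32817 promoter windows of RefSeq. The other 4 windows were 49.0% to 59.0% G and C with 3 to 13 CG dinucleotides. Window 2 alone therefore stood far above the typical window in this respect.

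Of 6 motifs searched on both strands, 2 were found. The ETS motif GGAAGT, or ACTTCC on the other strand, occurred in windows 1, 2, 3 and 5, and is held by 23.8% of all windows. The KLF motif GGGTGTG occurred in window 1 as CACACCC, and is held by 7.95% of all windows. The letters CTTTGA (TCF7 and LEF1, 16.0% of windows), TGTGGT (RUNX, 16.8%) and TGANTCA (AP-1, 7.81%) were not in these 5 windows. Nor was the motif of GATA factors, held by 11.2% of windows and searched as AGATAA. A match is a description of letters and not a measured binding site.

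A region at 51832424 to 51833648 covered windows 1 and 2, and its naive minus other effector fold was 8.87 by the authors' deposited table. It ranked 133 of the 17700 regions of that list. A second region at 51826197 to 51826849 covered window 3, with a naive minus other effector fold of 7.46 by the authors' deposited table. Neither region was listed in any other comparison, so accessibility at these starts was listed as lower in other effector cells than in naive cells, but was listed as lower neither in Th2 nor in Treg cells. Across RefSeq, 4.51% of promoter windows lay under a region lower in other effector than in naive cells.

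In the comparison of other effector with naive cells nearly every region of the locus was listed. Of the 31 distinct regions, 30 (96.8%, exact binomial 95% interval 83.3% to 99.9%, counting error over regions only) were lower in other effector than in naive cells, against 33.7% of all distinct regions. Their naive minus other effector folds had a median of 6.56 and a range of 4.36 to 9.19 by the authors' deposited table, where all regions of that list had a median of 5.41. Of the 30, 24 exceeded that list median. By place, 16 lay inside the gene, 12 upstream of its start and 2 beyond its other end. The upstream regions had folds of 5.25 to 9.19 and the inside ones of 4.36 to 8.87 by the authors' deposited table, so the 2 sets overlapped over most of their range. The gene table holds no exons, so exonic and intronic regions were not separated.

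**Figure D1:**
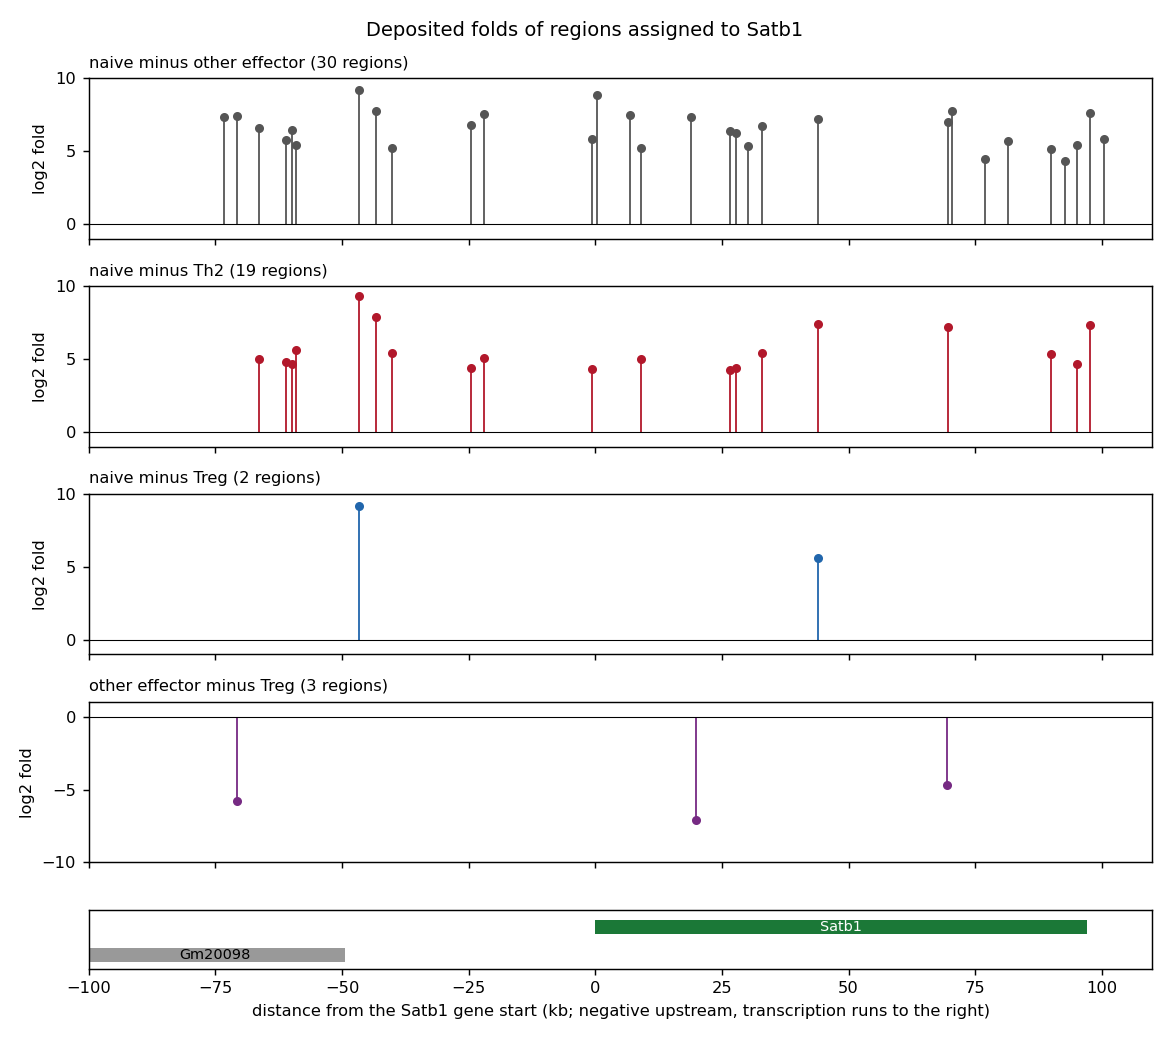
Deposited log2 fold of each region assigned to Satb1 (vertical axis) by its distance from the gene start in kb (horizontal axis, negative upstream), 1 panel for each of the 4 lists that hold any. Points are single regions and carry no error. The bars below show Satb1 and the long noncoding RNA gene Gm20098. Regions lower in other effector than in naive cells (30) and in Th2 than in naive cells (19) are spread over the gene and its upstream flank, whereas 2 are lower in Treg than in naive cells and 3 are lower in other effector than in Treg cells.

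Th2 cells were lower than naive cells at 19 of the 31 regions (61.3%, interval 42.2% to 78.2%), against 9.21% of all distinct regions. This share is not separate from that of other effector cells. Of the 4837 regions lower in Th2 than in naive cells, 4835 were also among the 17700 lower in other effector cells. At 0 of the 31 (interval 0% to 11.2%) were Th2 cells higher, against 9.67% of all. The naive minus Th2 folds had a median of 5.08 and ran from 4.28 to 9.37 by the authors' deposited table, where the whole list in that direction had a median of 5.28. Satb1 regions were thus many in this comparison, but their folds were of ordinary size for the list: 9 of the 19 exceeded its median. Of the 19, 10 lay upstream, 8 inside the gene and 1 beyond its far end. With a fold of at least 5 required, 12 remained.

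The strongest was the widest Satb1 region, 1693 bp at 51879015 to 51880707, 46571 bp upstream of the gene start. Its naive minus Th2 fold was 9.37 by the authors' deposited table, which ranked 11 of the 4837 regions lower in Th2 than in naive cells. Next came a region 43294 bp upstream at 51876324 to 51876844, with a naive minus Th2 fold of 7.92 by the authors' deposited table. Together with one at 51873339 to 51873574, with a naive minus Th2 fold of 5.43 by the authors' deposited table, they formed a close group upstream of the gene. Inside the gene the largest naive minus Th2 fold was 7.38, at 51789014 to 51789677, 43944 bp from the gene start, by the authors' deposited table. At the far end of the gene a region at 51735175 to 51736219, whose midpoint lay 490 bp beyond that end, had a naive minus Th2 fold of 7.35 by the authors' deposited table. Near the gene start a region of 164 bp at 51833766 to 51833929, the narrowest of all and 558 bp upstream, had a naive minus Th2 fold of 4.32 by the authors' deposited table. That small region was thus listed against Th2 cells, whereas the adjoining wide region over promoter windows 1 and 2 was not.

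Another 11 regions, lower in other effector than in naive cells, had no entry against Th2 cells. Their naive minus other effector folds had a median of 7.32, and the 19 with an entry a median of 6.48 by the authors' deposited table. Those without an entry ran from 4.36 to 8.87 on that scale and those with one from 5.17 to 9.19 by the authors' deposited table, so the missing entries took in both the weakest regions of the locus and strong ones. Among them were both regions over promoter windows, a region at 51762439 to 51763188 with a naive minus other effector fold of 7.77 by the authors' deposited table, and the 2 farthest upstream.

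The lists of Th2 and of other effector cells share their naive libraries, so their folds are given side by side and not as separate evidence. Where folds add up, the difference between the 2 folds of a region no longer holds the naive value. At 7 of the 19 regions the naive minus Th2 fold exceeded the naive minus other effector fold by 0.18 or 0.19 by the authors' deposited table. The same step occurred at 2917 of the 4835 regions that both lists name, or 60.3%, and at 0 of them was the excess larger. Whether it marks a shared lowest value for Th2 and other effector cells was not tested. These 7 included the 3 upstream regions at 40166 to 46571 bp and the 1 inside the gene at 51789014.

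At the other 12 regions the naive minus Th2 fold less the naive minus other effector fold was -2.49 to -0.20, with a median of -1.56, by the authors' deposited table. If these folds add up, Th2 cells lay above other effector cells there by the authors' values, while staying below naive cells. That was checked only for other sets of populations. The smallest gap, -0.20, was near the size of the 0.18 step, and no gap has an error. The largest gap was at 51854738 to 51855723, 21940 bp upstream, with a fold of 5.08 for naive minus Th2 and 7.57 for naive minus other effector cells by the authors' deposited table. The next region upstream, at 51857678 to 51858147, gave 4.39 and 6.79 in that order by the authors' deposited table. A pair inside the gene at 51806304 to 51806898 and 51805258 to 51805641 followed, with naive minus Th2 folds of 4.28 and 4.37 and naive minus other effector folds of 6.41 and 6.26 by the authors' deposited table. Among the 19, regions at the step lay in 2 unbroken blocks, 3 inside the gene and 4 upstream, with the 12 others before, between and after them. None of these gaps reached 3.46, the smallest fold in the list of other effector against Th2 cells by the authors' deposited table.

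**Figure D2:**
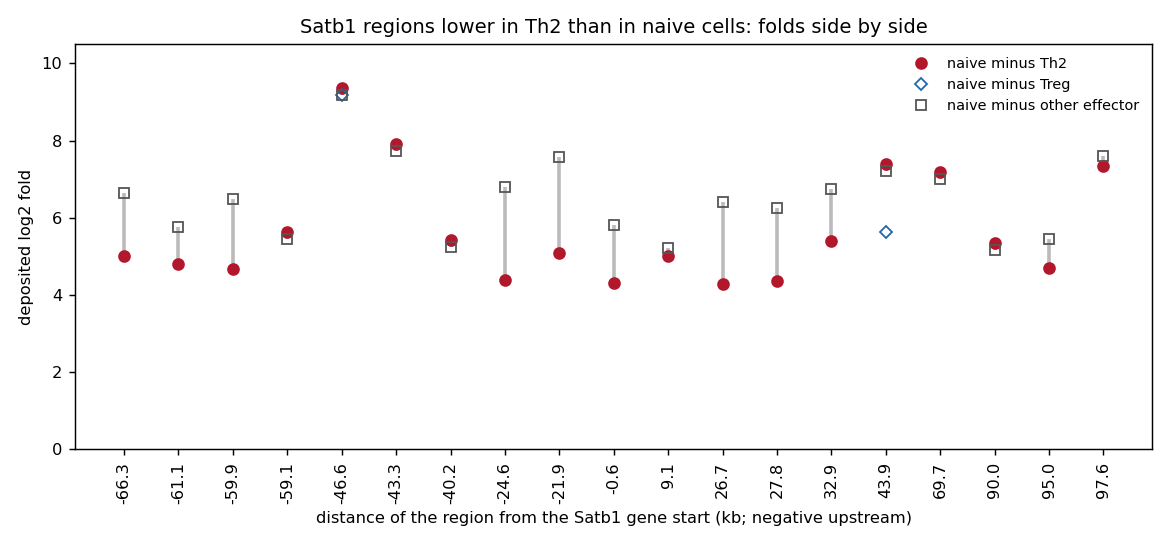
Deposited log2 folds (vertical axis) of the 19 Satb1 regions lower in Th2 than in naive cells, ordered by distance from the gene start in kb (horizontal axis, negative upstream). Filled circles are naive minus Th2, open diamonds naive minus Treg and open squares naive minus other effector; grey lines join the first and the last, and no point has an error. At 7 regions circle and square nearly coincide, and at 12 the circle is lower, with differences of -2.49 to -0.20.

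Treg cells were lower than naive cells at 2 of the 31 regions (6.45%, interval 0.791% to 21.4%), against 5.76% of all distinct regions. At 0 of the 31 were Treg cells higher than naive cells, against 6.64% of all. A count of 2 is near this background share, but many of the distinct regions behind it have no entry against naive cells. All 3025 regions lower in Treg than in naive cells were also listed as lower in other effector than in naive cells. Without the lists of other effector cells, 2 of the 19 Satb1 regions left were lower in Treg than in naive cells. Of all 16553 regions left, 18.3% were. Whether Satb1 lies below that share was not tested. The region 46571 bp upstream had a naive minus Treg fold of 9.19 by the authors' deposited table, equal to its naive minus other effector fold, and ranked 4 of the 3025 regions lower in Treg than in naive cells. Of those 3025, 1971 (65.2%) had a naive minus Treg fold equal to or 0.01 above the naive minus other effector fold. At 0 of them was the excess larger. The region inside the gene at 51789014 to 51789677 had a naive minus Treg fold of 5.62, against 7.38 for naive minus Th2 and 7.20 for naive minus other effector cells, by the authors' deposited table. These are 2 of the 3 regions named by 3 lists. Another 17 were named by 2 lists, 11 by 1 and none by more than 3. The remaining 1, at 51763240 to 51763966, was the one also listed as lower in other effector than in Treg cells, as follows.

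Other effector cells were lower than Treg cells at 3 of the 31 regions, against 46.7% of all distinct regions. The widest of these, 1459 bp at 51812628 to 51814086, had an other effector minus Treg fold of -7.06 by the authors' deposited table. It lay inside the gene, 193 bp from promoter window 4, and was the only one of the 31 regions with no entry against naive cells. A neighbour at 51814194 to 51814761 was lower in other effector than in naive cells, with a naive minus other effector fold of 7.33 by the authors' deposited table. The other 2 entries overlapped regions of the naive lists without sharing their exact limits. One at 51903758 to 51904293, upstream of the gene, had an other effector minus Treg fold of -5.81 by the authors' deposited table. Its counterpart, which ends at 51904344, had a naive minus other effector fold of 7.44 by the authors' deposited table. One at 51763738 to 51763940 had an other effector minus Treg fold of -4.67 by the authors' deposited table. It lay within the region at 51763240 to 51763966, whose fold was 7.19 for naive minus Th2 and 7.0 for naive minus other effector cells by the authors' deposited table.

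No Satb1 region was lower in other effector than in Th2 cells, against 53.2% of all distinct regions. Treg cells were higher than Th2 cells at 0 regions, against 3.34% of all, and lower at 0, against 6.72%. The lists hold no fold under 3.46 in size for other effector and Th2 cells, and none under 3.95 for Treg and Th2 cells by the authors' deposited table. Smaller differences between these populations at Satb1 could not be seen in them. Larger ones may be missing too, because the rule for listing is not stated.

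**Figure D3:**
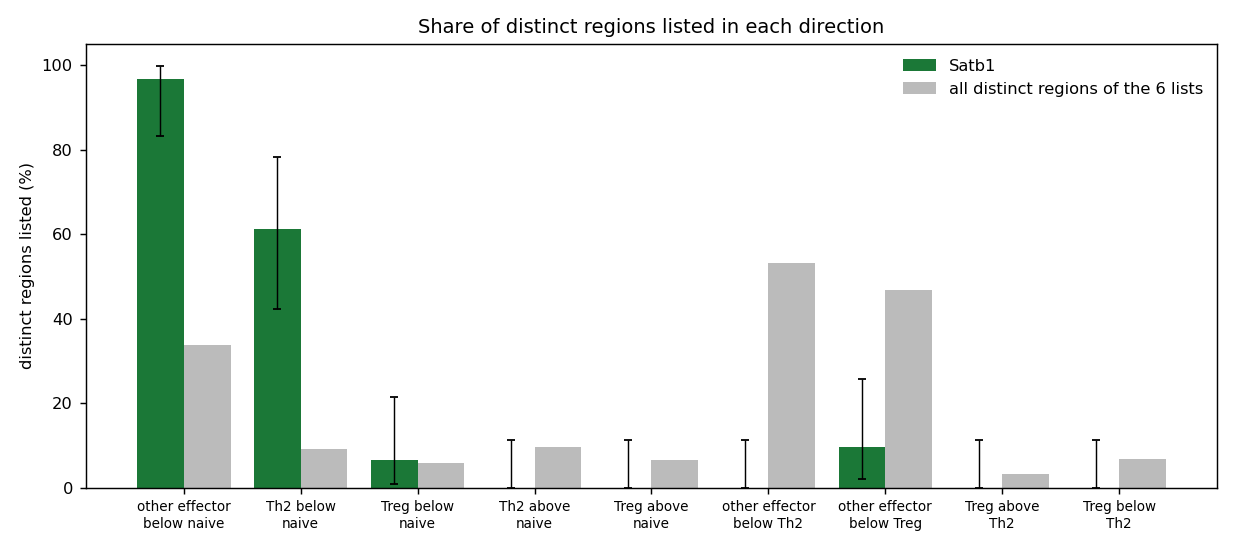
Share of distinct regions listed in each direction, in percent, for the 31 regions of Satb1 (green, with exact 95% binomial intervals over regions, which are not replicates) and for all 52537 distinct regions (grey). Every distinct region is listed somewhere, so a high share in 1 direction leaves less room in others. Satb1 stands at 96.8% against 33.7% for other effector below naive cells and at 61.3% against 9.21% for Th2 below naive cells. These shares are not separate, because nearly all regions listed in the second direction are also listed in the first.

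Position was shared by the regions in a further way. The table of genes places the long noncoding RNA gene Gm20098 upstream of Satb1, at 51882727 to 51965257, and 6 of the 12 upstream regions had their midpoint inside it. Of all 31, 17 lay inside Satb1 (54.8%), against 63.4% of all distinct regions assigned to a gene. Widths ran from 164 to 1693 bp among regions lower in other effector than in naive cells, with a median of 521 bp, against 568 bp for that whole list.

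Satb1 stands in a long stretch without other protein-coding genes, 769 kb on its upstream side to Kcnh8, a potassium channel gene, and 555 kb on the other side to Tbc1d5. The 100 kb limit of the rule fell inside this stretch. Just inside it upstream was the region at 51906117 to 51907051, 73294 bp from the gene start, with a naive minus other effector fold of 7.32 by the authors' deposited table. Just outside was one at 112.7 kb with a fold of 3.74 for naive minus other effector cells by the authors' deposited table. On the other side, a region 3406 bp beyond the gene end had a naive minus other effector fold of 5.81, and the next one out, at 223.8 kb, had 3.95 by the authors' deposited table. With the limit at 500 kb, 54 regions were lower in other effector than in naive cells and 27 lower in Th2 than in naive cells, where the 100 kb limit gave 30 and 19. Listed regions therefore did not end at the limit.

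**Figure D4:**
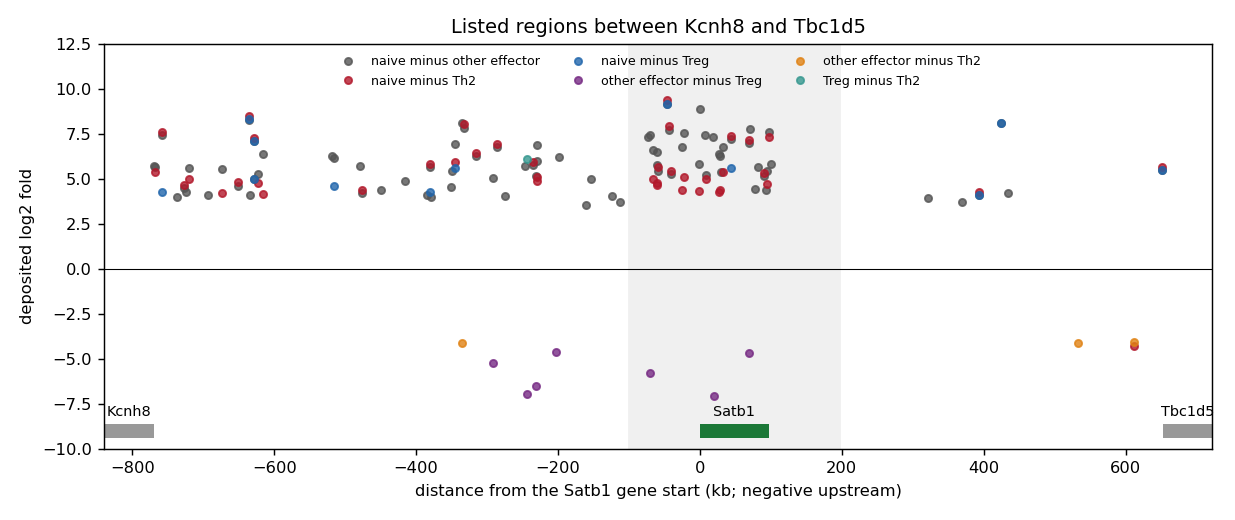
Deposited log2 folds (vertical axis) of listed regions between Kcnh8 and Tbc1d5 by distance from the Satb1 start in kb (horizontal axis, negative upstream), coloured by list, with Satb1 and 100 kb to either side shaded. The neighbouring genes are cut off by the edges of the plot. Regions lower in other effector or Th2 than in naive cells go on upstream of the shaded part, whereas the other side holds 8 regions.

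Set against other genes, 13906 genes had at least 1 distinct region, with a median of 2, and Satb1 with 31 ranked 34. Among the 409 genes with at least 15, only 1 had a larger share of regions lower in other effector than in naive cells than the 96.8% of Satb1, and the median gene had 40.6%. Likewise 1 gene exceeded its 61.3% lower in Th2 than in naive cells, where the median gene had 8.33%. For regions lower in Treg than in naive cells 169 genes had a larger share than Satb1. Only 5 of the 409, Satb1 among them, had 0 regions lower in other effector than in Th2 cells.

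By distance between the shares in 9 directions, the 5 of these genes nearest to Satb1 were Cox10 (0.308), Lef1 (0.331), Ikzf1 (0.363), Gramd3 (0.366) and Pakap (0.378). Cox10 serves assembly of a respiratory chain enzyme, Lef1 is a transcription factor of naive T cells, and Ikzf1 encodes Ikaros, a lymphoid transcription factor. All 5 had more regions lower in Treg than in naive cells than Satb1 had, with 8 at Cox10, 10 at Lef1, 5 at Ikzf1, 5 at Gramd3 and 4 at Pakap, against 2 at Satb1. When genes with 10 or more regions were also ranked, 0 of these 5 stayed among the nearest, and Kcnh8 came first (0.156). Most regions of Kcnh8 lay in the stretch between it and Satb1.

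**Figure D5:**
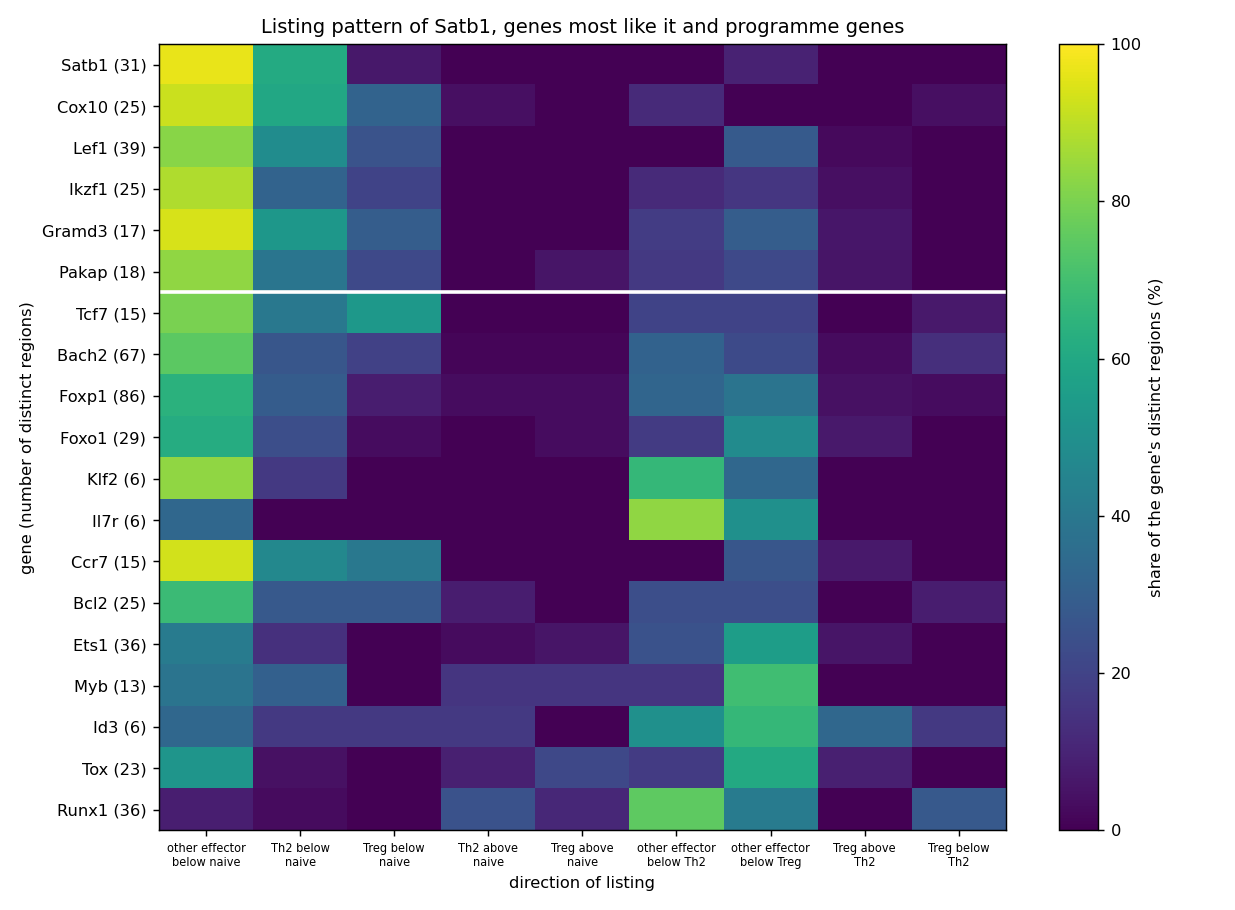
Share of each gene's distinct regions listed in each of 9 directions (colour, in percent), for Satb1 and the 5 genes most like it (above the white line) and for the remaining programme genes of naive and early T cells (below it). Numbers after the names are distinct regions. Satb1 shows 96.8% for other effector below naive, 61.3% for Th2 below naive and 6.45% for Treg below naive cells.

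Of 15 genes chosen as partners in the programme of naive and early T cells, all had a region lower in other effector than in naive cells, together 264 of their 427 distinct regions (61.8%, against 33.7% of all). Th2 cells were lower than naive cells at 110 of these regions over 14 genes (25.8%, against 9.21% of all), with most at Foxp1 (25), Lef1 (19) and Bach2 (18), transcription factors of resting T cells. Treg cells were lower than naive cells at 58 over 9 genes (13.6%, against 5.76% of all), with most at Bach2 (13), Lef1 (10) and Tcf7 (8), the last a transcription factor that acts with Lef1. At 13.6% this share was above the 6.45% of Satb1 but inside its interval of 0.791% to 21.4%. For Th2 below naive cells the 25.8% of the list was under the 61.3% of Satb1. Th2 cells were higher than naive cells at 21 regions (4.92%, against 9.67% of all), with the highest count at Runx1 (9). Treg cells were higher than naive cells at 18 (4.22%, against 6.64% of all), with the highest count at Tox (5). The list holds the naive markers Ccr7, Lef1 and Tcf7, so its shares are not separate from the marker counts.

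Of 18 genes on which Satb1 is known to act in T cells, 9 had a region higher in Th2 than in naive cells, 25 of the list's 154 distinct regions (16.2%, against 9.67% of all). The highest counts were at Il13 (5), a type 2 cytokine gene, and at Myc (5), a growth regulator. Ctla4 and Runx3 had 3 each. Il4, whose locus Satb1 folds, had 1, Il5 had 2 and the neighbouring Rad50 had 2. At Pdcd1, which encodes the inhibitory receptor PD-1 and is repressed by Satb1, 3 regions were higher in Th2 cells and 2 in Treg cells, each relative to naive cells. In the other direction, 1 Pdcd1 region was lower in Treg and 1 lower in other effector than in naive cells. Treg cells were higher than naive cells at 24 regions over 8 genes (15.6%, against 6.64% of all), led by Ikzf2 (10) and Ctla4 (6). The list holds all 4 Treg markers used for the sign check, which had 18 such regions. It also holds the Th2 markers Il4, Il5 and Il13, so its shares are not separate from the marker counts. Th2 cells were lower than naive cells at 12 regions over 7 genes (7.79%, against 9.21% of all), and Treg cells at 4 over 3 genes (2.60%, against 5.76% of all). Cd4 had none in any list.

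Of the genes that flank Satb1, Kcnh8 had 10 distinct regions, of which 10 were lower in other effector and 5 lower in Th2 than in naive cells. Most of these lay outside Kcnh8, in the stretch between it and Satb1, and were counted for it by distance alone. Tbc1d5 had 12, of which 6 were lower in other effector and 2 lower in Th2 than in naive cells. The shares of all distinct regions were 33.7% and 9.21% in that order. Other effector cells were lower than Th2 cells at 5 regions of Tbc1d5 and lower than Treg cells at 5, against 0 and 0 at Kcnh8, where all distinct regions had 53.2% and 46.7%.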

How the data were processed

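Chromatin accessibility was profiled in 4 sorted T helper populations, with transposition for 30 minutes, amplification over 16 PCR cycles and 125-base paired sequencing, per the labels' protocols. The authors deposited 6 lists of differential regions with a log2 fold for each, made with DiffBind (version unstated) per the submitters' processing notes. The base of the logarithm is taken from that tool. No source used here names the aligner, peak caller, read shift, normalization or threshold. The notes name build mm9, but all 11 unplaced sequences in the lists carry accessions of GRCm38 type. Of distinct regions, 21.9% lay within 1 kb of an end of a GRCm38.p6 protein-coding gene, against 4.20% to 6.15% after shifts of 10 to 1000 kb, so coordinates are given as GRCm38 and 1-based.

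Entries were assigned by midpoint to 21900 protein-coding genes of RefSeq, with Python 3.11.15 and pandas 2.3.3. Folds added up exactly at the 1 and 3 regions listed in all 3 comparisons of a triple, and are first-named minus second-named population. Satb1, its companion lists, motifs and rules were chosen with earlier results of these data known. Named regions are those within 1 kb of a gene end, the 2 strongest per list and direction, those in directions with at most 3 entries, and the widest and narrowest; others in the text were chosen after their values were seen. Companion genes are named up to 3 per direction, except that more are named among the genes Satb1 is known to act on. Some items are not reported here, and the marker and companion lists were counted without them. Likeness is the Euclidean distance over genes with 15 or more distinct regions. Promoter sequences are those of RefSeq, GRCm38.p6, and all 5 windows of Satb1 matched by symbol. Merging, assignment and ranking were tested on simulated data. No test between populations was possible without replicate values. Alternatives changed the assignment distance, overlap, merging, fold minimum, lists used and likeness measure.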

Additional observations from a re-analysis of the deposited data

How the results depend on the processing

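Of 70 values under alternative settings, 56 stayed close to those reported and 14 moved. All were counts, shares, sizes of folds or overlaps of gene lists, so none could turn direction. Many were counts or shares of 0, which could only stay at 0 under the stricter distance or fold settings. Within 10 kb or inside the gene, regions lower in other effector, Th2 and Treg cells than in naive cells numbered 19, 10 and 1. Up to 500 kb, regions lower in other effector than in naive cells numbered 54 and those lower in Treg than in naive cells 4. The same limit gave 7 lower in other effector than in Treg cells, 1 lower in other effector than in Th2 cells and 1 higher in Treg than in Th2 cells, and put 29.8% inside the gene. With a fold of at least 5, 12 regions were lower in Th2 than in naive cells, 41.4% of the distinct regions left. Without the lists of other effector cells, 19 distinct regions were left, and 100% of them were lower in Th2 than in naive cells, against 29.2% of all 16553 regions, a share raised because regions named by those lists alone drop out. Ranking genes with 10 or more regions kept 0 of the 5 genes most like Satb1. Depth is unknown, and replicates could not be left out because the lists hold none. No paired analysis was possible because the deposited lists hold no replicate values.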

Other observations

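Beyond the 100 kb limit, the stretch between Satb1 and Kcnh8 held 46 further distinct regions. Of these, 44 were lower in other effector, 19 in Th2 and 7 in Treg than in naive cells (against 33.7%, 9.21% and 5.76% of all). The stretch is 769 kb long, and its far part lies nearer to Kcnh8 than to Satb1, so these regions cannot be given to either gene from position. Those within 100 kb of Kcnh8 were counted for it above by the distance rule only. The stretch on the other side, 555 kb long, held 8 distinct regions.

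A region at 52076823 to 52077025, 243.6 kb upstream of the Satb1 start, was the only one in either stretch listed between Treg and Th2 cells. Its Treg minus Th2 fold was 6.08 and its other effector minus Treg fold -6.95 by the authors' deposited table. Another 3 regions at 203.2 to 292.3 kb upstream were lower in other effector than in Treg cells, with other effector minus Treg folds of -4.61, -6.52 and -5.22 by the authors' deposited table. Near them, regions at 229.2 kb and 230.0 kb were lower in Th2 than in naive cells, with naive minus Th2 folds of 4.87 and 5.12 by the authors' deposited table.

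The strongest of the distant regions, at 52468329 to 52469108, lay 635.4 kb upstream. Its folds were 8.49 for naive minus Th2, 8.31 for naive minus Treg and 8.30 for naive minus other effector cells by the authors' deposited table. A difference of 0 or 0.01 between the last 2, as here and at the next region, occurred at 65.2% of regions lower in Treg than in naive cells. On the other side, a region at 51408226 to 51408996, 327.6 kb from the gene, had a fold of 8.11 both for naive minus Treg and for naive minus other effector cells and no entry against Th2 cells by the authors' deposited table. In the naive lists it is thus named against Treg and not against Th2 cells, which no region assigned to Satb1 was. The same held for distant regions 515.5 kb and 629.2 kb upstream, with naive minus Treg folds of 4.58 and 4.99 by the authors' deposited table.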
